A study of Mus musculus with 12 samples.

Results

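The proteasome genes described here are the protein-coding mouse genes with symbols of the pattern Psm, a letter from a to g and a number, that reached a mean of 1 CPM (read counts scaled to a common library total) over the 12 libraries. Of 55487 genes in the table, 48 matched the pattern and 46 passed the level. The lowest members by mean level were Psmg3 at 6.72 CPM and Psmb8 at 9.73 CPM. The other two, the tissue-restricted core genes Psmb11 and Psma8, had means of 0.047 and 0.0043 CPM and were left out. The members were divided into 5 genes inducible by interferon, namely Psmb8, Psmb9, Psmb10, Psme1 and Psme2, and 41 constitutive genes.

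B16F10, a mouse melanoma cell line of wild-type genotype in the labels, was profiled by RNA sequencing after 24 h in medium conditioned by mouse bone-marrow-derived macrophages. The groups, of 3 libraries each, differed in what the macrophages had received for the 24 h before: control medium (DMEM) for M0, 20 ng/ml of a cytokine spelt INF-γ in the labels and taken as interferon gamma for M1, 20 ng/ml IL-4 for M2, and 75% medium conditioned by B16F10 cells for the group called TAM. Whether the stimulus was still present in the transferred medium is not stated, so carried-over interferon and macrophage products cannot be told apart in M1. All groups received macrophage medium. The labels leave unsaid whether libraries of a group were separate cultures, and p-values refer to the variation among libraries, possibly technical variation alone. Library totals lay between 15916756 and 20863973, and 1 library, M0 replicate 1, stood apart. The 10 melanocyte markers, summed without TMM scaling, reached 27930 to 28030 CPM in M0, 19990 to 20300 in M1, 26120 to 26490 in M2 and 22180 to 23170 in TAM. Against M0, 7 of the 10 were called lower both for M1 and for TAM, beside 13.5% and 27.2% of all genes. Without M0 replicate 1, 9 were lower and 0 higher in M1, beside 22.9% and 24.3% of all genes. In TAM 8 were then lower and 1 higher, beside 33.7% and 33%. The part of these markers in the results was not tested.

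The proteasome is the protease that degrades ubiquitin-tagged proteins. Its 20S core is a barrel of outer alpha rings and inner beta rings, and the beta subunits encoded by Psmb5, Psmb6 and Psmb7 cut the substrate. The 19S particle at the ends of the barrel recognises, unfolds and feeds in ubiquitinated proteins. Interferon gamma is known to induce Psmb8, Psmb9 and Psmb10, whose products replace the Psmb5, Psmb6 and Psmb7 products in newly built cores to give the immunoproteasome, and Psme1 and Psme2, which encode the PA28 activator cap. These forms favour peptides suited to MHC class I molecules.

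Windows of 300 bases from RefSeq (GRCm38.p6), from 250 bases before to 50 after the annotated start, are given for 4 members. The inducible genes were all higher in M1, and 3 of them can be read beside a constitutive catalytic gene. The windows of Psmb10 and Psme2 are not printed. Capitals mark a match to the gamma-activated site, TTCNNNGAA, or to the interferon-stimulated response element, searched as a pair of GAAA blocks with 2 bases between them, to which interferon regulatory factors bind. The windows are chr17:34197945-34198244 (plus strand) for Psmb8, chr17:34187281-34187580 (minus strand) for Psmb9, chr14:55578244-55578543 (plus strand) for Psme1 and chr14:54617946-54618245 (minus strand) for Psmb5.
Psmb8: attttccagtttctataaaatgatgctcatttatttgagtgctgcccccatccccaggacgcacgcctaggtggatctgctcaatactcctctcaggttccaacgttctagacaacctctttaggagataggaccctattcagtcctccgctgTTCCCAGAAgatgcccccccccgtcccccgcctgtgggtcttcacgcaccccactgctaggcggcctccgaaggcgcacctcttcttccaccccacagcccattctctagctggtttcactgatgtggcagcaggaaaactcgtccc
Psmb9: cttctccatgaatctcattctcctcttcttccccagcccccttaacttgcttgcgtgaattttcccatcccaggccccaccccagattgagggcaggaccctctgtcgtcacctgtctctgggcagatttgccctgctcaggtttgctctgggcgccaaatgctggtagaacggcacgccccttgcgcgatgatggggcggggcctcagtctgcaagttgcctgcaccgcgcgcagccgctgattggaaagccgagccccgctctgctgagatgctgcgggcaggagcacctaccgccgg
Psme1: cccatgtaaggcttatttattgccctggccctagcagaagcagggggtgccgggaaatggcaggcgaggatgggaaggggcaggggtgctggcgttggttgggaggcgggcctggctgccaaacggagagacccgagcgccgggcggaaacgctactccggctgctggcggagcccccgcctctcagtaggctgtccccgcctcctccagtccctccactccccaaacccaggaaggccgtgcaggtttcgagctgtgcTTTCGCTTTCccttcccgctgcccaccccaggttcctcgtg
Psmb5: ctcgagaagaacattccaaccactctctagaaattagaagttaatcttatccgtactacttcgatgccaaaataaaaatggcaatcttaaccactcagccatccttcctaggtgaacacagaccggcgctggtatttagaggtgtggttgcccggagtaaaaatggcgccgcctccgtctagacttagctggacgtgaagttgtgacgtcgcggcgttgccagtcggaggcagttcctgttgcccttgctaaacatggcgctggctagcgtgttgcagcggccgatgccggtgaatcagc

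With the start base counted as 0, the match in Psmb8 spanned bases -97 to -89, and that in Psme1, on the minus strand of the window, bases 9 to 18. Both strands were searched in the windows of the 39 members that had one, and no member held both patterns. The gamma-activated site pattern was present in 1 of 5 inducible genes and in 2 of 34 constitutive genes, against 9.55% of 27025 genes with a window. The response element pattern was present in 1 of 5 inducible genes and 4 of 34 constitutive genes, namely Psmb3, Psmd4, Psmd9 and Psmg4, against 3.99% of genes. Neither pattern was found in the windows of Psmb9, Psmb10, Psme2, Psmb5 or Psmb6. Such matches are letters in a window and not shown binding sites, and the annotated RefSeq starts of Psmb8, Psmb9 and Psme1 lie 474, 434 and 371 bases downstream of the GENCODE gene starts.

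All 5 inducible genes were higher in M1 than in M0, M2 and TAM. With all 12 libraries 0 of the 41 constitutive genes were called higher against M0, beside 12.2% of all genes. Of the constitutive genes 4 were higher at an unadjusted p under 0.05, and DESeq2 called 2 (4.88%, against 15% of all genes). Without M0 replicate 1, 20 were called (48.8%, against 24.3%), so this count depended on that library. Psmb8 and Psmb9 reached the mean of 1 CPM through M1 alone, with means of 0 and 0.0748 CPM over the 9 libraries outside it, so they had to differ and their values are a description. Psmb10, Psme1 and Psme2 passed that level without M1. Psmb8 (β5i, chr17:34197721-34201454, plus strand, mm10) had no count in any of the 9 libraries outside M1 and stood at 39.4, 37.2 and 39.6 CPM in M1. This was at least 709-fold above M0, at least 750-fold above M2 and at least 765-fold above TAM, against a floor of 3 counts over each group. Floors and counting intervals cover counting error only.

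Psmb9 (β1i, chr17:34181987-34187764, minus strand) stood at 197.5, 199.2 and 194.1 CPM in M1. In M0 it stood at 0.28 CPM in replicate 1 and at 0 in the others, and in M2 and TAM no library exceeded 0.2 CPM. The 3 M1 libraries held 11134 counts against 5 in M0, 7 in M2 and 1 in TAM. The ratio to M0 was 2157 with a 95% counting interval from 924 to 6644, and that to M2 was 1630 with an interval from 790.7 to 4054. In exons Psmb9 shares 212 bases on the opposite strand with Tap1, the gene of a peptide transporter subunit beside it, and without a stated strand setting reads there cannot be assigned. Tap1 itself stood at 529.8 to 565.7 CPM in M1 and 1.06 to 2.23 CPM in the other libraries.

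Psmb10 (β2i, chr8:105935735-105938444, minus strand) was the inducible catalytic gene with a clear level in every group. It stood at 26.4, 9.83 and 10.7 CPM in M0, at 388.7, 408.9 and 421.8 in M1, at 11.1, 9.52 and 12.1 in M2 and at 5.54, 5.13 and 5.22 in TAM. M1 lay above all other libraries and TAM below all other libraries. Against M0, M1 was higher by 4.70 ± 0.34 on the log2 scale (SE, adjusted p = 1.97e-06), or by 5.34 without M0 replicate 1. TAM was lower, with a log2 change of -1.56 ± 0.32 against M0 (adjusted p = 0.00199), or -0.97 without M0 replicate 1, and of -1.04 ± 0.32 against M2 (adjusted p = 0.021). The call against M2 was lost without M2 replicate 1 or 3 or TAM replicate 2 or 3 (adjusted p = 0.0505 to 0.0632).

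Psme1 and Psme2 encode the alpha and beta subunits of PA28 and lie near each other on chromosome 14 on opposite strands, at chr14:55578123-55581529 and chr14:55587441-55591113. Psme1 stood at 65.5, 29.0 and 31.1 CPM in M0, 369.4, 340.8 and 340.4 in M1, 32.5, 33.8 and 33.5 in M2, and 35.8, 35.9 and 37.1 in TAM. Psme2 stood at 31.4, 15.6 and 13.6 CPM in M0, 281.8, 282.4 and 275.9 in M1, 14.4, 14.9 and 17.2 in M2, and 20.4, 22.4 and 19.1 in TAM. M1 lay above all other libraries for both, with log2 changes against M0 of 3.06 ± 0.26 (adjusted p = 9.57e-06) and 3.79 ± 0.27 (adjusted p = 1.96e-06). In TAM against M0 their changes were -0.21 ± 0.25 (adjusted p = 0.507) and 0.03 ± 0.25 (adjusted p = 0.932), and without M0 replicate 1 both passed the test, at 0.26 and 0.50. Psme2b, a near-identical intronless copy of Psme2, stood at 79.2 to 80.7 CPM in M1 and at 3.12 to 9.20 CPM elsewhere, so how reads were divided between the copies is uncertain for Psme2.

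Macrophage markers also differed in M1. The summed level of all 23 listed markers, taken without TMM scaling, was 23.04 to 25.02 CPM in M1 against 5.37 to 8.13 in M0, 6.02 to 6.72 in M2 and 3.94 to 5.03 in TAM. Mpeg1, at 14.5 to 16.6 CPM, Ctss, at 1.24 to 1.80 CPM, and Cd68, at 4.01 to 4.81 CPM, were higher in every M1 library than in all others. Of the 6 markers tested against M0, Mpeg1 and Ctss were called higher and 1, Fcer1g, lower, beside 12.2% and 13.5% of all genes. Fcer1g held 51 counts in M0 and 18 in M1, a change of -1.51 ± 0.42 (adjusted p = 0.0231), and did not pass without M0 replicate 1 (adjusted p = 0.0556). In that fit 3 markers were higher and 0 lower, beside 24.3% and 22.9% of all genes. Against M2 with all libraries 3 were higher and 0 lower, beside 9.72% and 7.5%. In TAM against M0, 0 were higher and 3 lower, beside 23.3% and 27.2%. Without M0 replicate 1 these were 0 and 2, beside 33% and 33.7%. In TAM against M1, 0 were higher and 3 lower, beside 19.8% and 23.3%. The part of these markers in the results was not tested. Ptprc, Adgre1, Itgam, C1qa, C1qb, C1qc, Tyrobp and Cd53, defining leukocyte and macrophage genes, had no count in any of the 12 libraries. The 12 lymphocyte markers summed to 0.144 to 1.17 CPM, with 1 of them tested. In bulk RNA, fewer cells of a type and less RNA per cell cannot be told apart.

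The constitutive catalytic genes did not follow the inducible ones. Psmb5 (β5, chr14:54614119-54618022) stood at 137.3, 60.2 and 64.7 CPM in M0, 65.0, 56.6 and 61.8 in M1, 58.4, 52.4 and 61.8 in M2, and 97.7, 103.3 and 87.2 in TAM. M1 and M2 overlapped, and TAM lay above both and inside the wide range of M0. Psmb6 (β1, chr11:70525367-70527858) stood at 381.3, 168.9 and 166.2 CPM in M0, 181.4, 190.2 and 188.6 in M1, 176.0, 160.8 and 172.1 in M2, and 188.7, 205.7 and 180.8 in TAM. Psmb7 (β2, chr2:38588036-38644087) stood at 240.0, 142.8 and 150.0 CPM in M0, 144.4, 157.9 and 150.2 in M1, 139.4, 143.3 and 146.1 in M2, and 125.6, 122.3 and 120.1 in TAM. TAM was below all other libraries for Psmb7.

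In M1 against M0 the log2 changes were -0.52 ± 0.26 for Psmb5 (adjusted p = 0.164), -0.36 ± 0.26 for Psmb6 (adjusted p = 0.339) and -0.24 ± 0.17 for Psmb7 (adjusted p = 0.318). Without M0 replicate 1 they became 0.01, 0.19 and 0.08, with Psmb6 past the test. In TAM, Psmb5 was higher than in M2 by 0.74 ± 0.26 (adjusted p = 0.0389). Leaving out any single M1, M2 or TAM library, or scaling by upper-quartile factors, took that call past the threshold (adjusted p = 0.052 to 0.12). Its change against M0 was 0.14 ± 0.26 (adjusted p = 0.679), or 0.61 without M0 replicate 1 (adjusted p = 1.43e-08). Psmb7 was lower in TAM than in M0 by -0.53 ± 0.17 (adjusted p = 0.0207), or by -0.26 without that library, and the call was lost without TAM replicate 2 or 3 and in a fit of TAM and M0 alone (adjusted p = 0.0531 to 0.114).

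**Figure D1:**
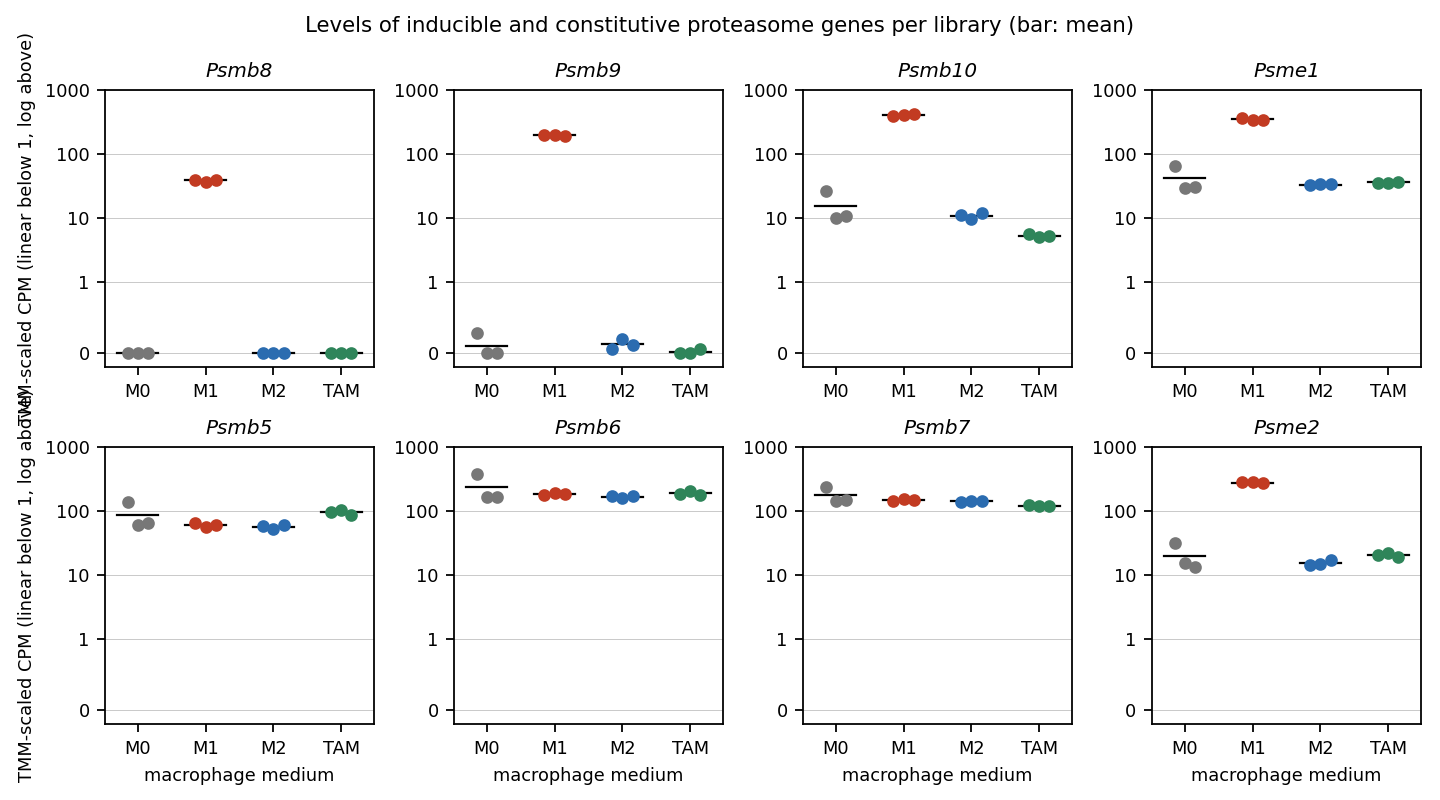
TMM-scaled CPM of the 5 inducible genes and the 3 constitutive catalytic genes in each of 12 libraries, grouped by macrophage medium, on an axis that is linear below 1 and logarithmic above. Bars mark group means. The M1 points of the inducible genes lie above all other points, whereas for Psmb5, Psmb6 and Psmb7 the highest point is M0 replicate 1.

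Set per kilobase of merged exons, the catalytic partners could be compared within a library. In M1 Psmb10 made up 84.4% ± 0.53 (SD, n = 3) of the sum of Psmb10 and Psmb7, Psmb9 made up 35.1% ± 0.66 of Psmb9 and Psmb6, and Psmb8 made up 14.4% ± 0.50 of Psmb8 and Psmb5. Outside M1 the Psmb10 share was 14.3% ± 3.3 in M0, 13.3% ± 1.3 in M2 and 7.97% ± 0.19 in TAM, and the Psmb9 share was at most 0.0631%. The order of the shares of Psmb10, Psmb9 and Psmb8 in M1 held on each length scale, but their size did not. Per kilobase of the principal transcript, a scale chosen after the values were seen, the shares in M1 were 70.5%, 38.4% and 25.9%, and without length scaling 72.9%, 51.3% and 38.8%. They are shares of messenger RNA and not of assembled subunits.

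**Figure D2:**
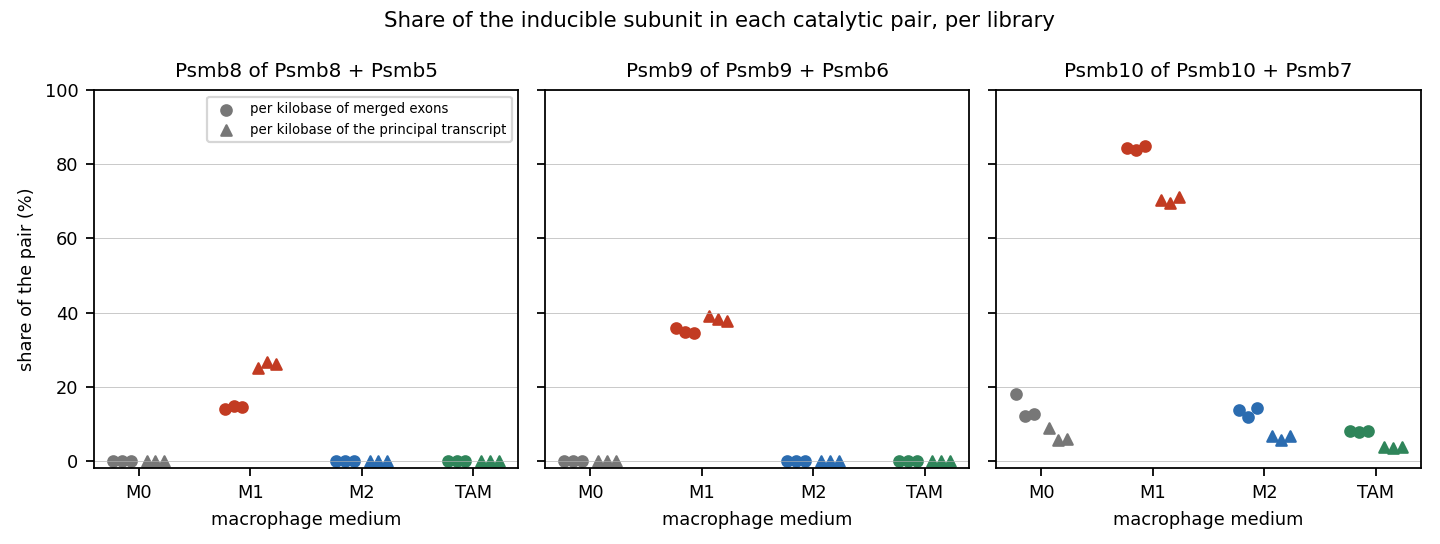
Share of the inducible gene in each catalytic pair, in percent, for each library and medium. Circles are per kilobase of merged exons and triangles per kilobase of the principal transcript. In M1 the shares are 84.4%, 35.1% and 14.4% by the first scale for Psmb10, Psmb9 and Psmb8.

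M0 replicate 1 bears on every comparison with M0. Of the 46 members, 41 were higher in it than in both other M0 libraries and 4 lower, a share above of 89.1% against 46.6% of all 14591 genes tested. The median member lay 0.81 log2 units above the mean of the other M0 libraries, against 0.031 for all genes. The summed level of the members was 11160 CPM in it and 7067 and 7059 CPM in the others. The common dispersion of the fit was 0.0324 with it and 0.00166 without. Counts of members called are therefore given with and without this library. The comparisons with M2 do not use M0 means although they share the estimate of spread.

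In M1 against M0, 5 of 46 members were higher and 1 lower, beside 12.2% of all genes tested that were higher and 13.5% that were lower. The 5 are the inducible genes, of which Psmb8 and Psmb9 had to differ. The 1 lower member was Psmd6, a 19S lid subunit gene, with a change of -0.39 ± 0.12 (adjusted p = 0.0311), a call lost with a replicate block (adjusted p = 0.0512), with no filter (0.141), in a fit of M1 and M0 alone (0.246) and on leaving out any single M1, M2 or TAM library (adjusted p = 0.0512 to 0.122). The median of the 41 constitutive members was -0.22, and that of all genes -0.018. Without M0 replicate 1, 25 members were higher and 3 lower, against backgrounds of 24.3% and 22.9%, and the constitutive median was 0.11. The member of smallest p in each of the remaining role groups stayed above the threshold in the full fit. These were Psmc4, a 19S ATPase gene, at -0.48 ± 0.20 (adjusted p = 0.0997), the assembly chaperone genes Psmd9 at -0.46 ± 0.20 (adjusted p = 0.125) and Psmg3 at -0.81 ± 0.38 (adjusted p = 0.138), and the core genes Psma5 at 0.56 ± 0.19 (adjusted p = 0.0527) and Psmb2 at 0.42 ± 0.18 (adjusted p = 0.112). Psmf1 changed by 0.28 ± 0.12 (adjusted p = 0.123) and Psme3 by -0.09 ± 0.08 (adjusted p = 0.432). All 5 of the first group moved upward when M0 replicate 1 was left out, and Psma5 and Psmb2 then passed the test. The fit without that library held 12 of the 14 constitutive 20S core genes higher, and 6 of 17 genes of the 19S particle higher and 2 lower.

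M1 against M2 gave the same contrast with M2 as the baseline. Here 9 members were higher and 0 lower (0 at an unadjusted p under 0.05, and 0 by DESeq2), against 9.72% and 7.5% of all genes. The 9 include the 5 inducible genes, of which Psmb8 and Psmb9 had to differ. Of the 41 constitutive members 4 were higher, which is 9.76% and near the background with all libraries. DESeq2 called 8 (19.5%, against 12.1% of all genes), and without M0 replicate 1 there were 21 (51.2%, against 24.8%). The 4 were Psma5, Psma2 and Psmb2 of the core and Psmf1, the gene of the PI31 inhibitor. Psma5 (α5, chr3:108256926-108279974) stood at 158.4, 88.2 and 90.2 CPM in M0, 162.9, 173.5 and 159.9 in M1, 80.4, 77.6 and 87.0 in M2, and 68.3, 69.3 and 64.1 in TAM. M1 lay above every other library for it, and it was higher than in M2 by 1.02 ± 0.19 on the log2 scale (adjusted p = 0.00356). Psma2 and Psmb2 rose by 0.66 ± 0.15 (adjusted p = 0.00953) and 0.66 ± 0.18 (adjusted p = 0.0275), and Psmf1, at 69.3 to 69.7 CPM in M1 and 48.0 to 52.2 in M2, by 0.49 ± 0.12 (adjusted p = 0.0181). The Psmb2 call was lost with upper-quartile factors and on leaving out any single M1 or M2 library, and the Psmf1 call on leaving out any M1 library or M2 replicate 1 or 2 (adjusted p at most 0.0959 and 0.0707).

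The core and the cap differed in how their genes lay. All 14 constitutive 20S core genes had positive changes in M1 against M2, with a median of 0.32 and 3 past the test. The 17 genes of the 19S particle had a median of 0.01 and 0 past the test, with 1 at an unadjusted p under 0.05 and 0 by DESeq2 or limma-voom. Without M0 replicate 1, 13 of the 14 core genes were higher, and of the 17 genes of the particle 6 were higher and 2 lower. Over all members that fit called 26 higher and 3 lower, against backgrounds of 24.8% and 23.5%. The 7 alpha-ring genes summed to 1435 ± 43 CPM in M1 and 1058 ± 29 in M2 (SD, n = 3), and the 6 ATPase genes of the 19S base to 1507 ± 56 and 1480 ± 23. A test of the difference between these sets was not made. Psmc2 and Psmd8, the ATPase and lid genes of smallest p, changed by 0.11 ± 0.18 (adjusted p = 0.793) and 0.43 ± 0.19 (adjusted p = 0.172).

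Assembly genes followed neither set as a whole. Psmg4, which encodes a chaperone of alpha-ring assembly, stood at 23.8 to 27.0 CPM in M1 and 13.7 to 14.3 in M2, a change of 0.85 ± 0.27 (adjusted p = 0.0537), and passed the test without M0 replicate 1. Psmd9, of 19S base assembly, changed by -0.10 ± 0.20 (adjusted p = 0.832). Pomp, the maturation factor of the core and no member of the symbol pattern, stood at 229.6, 117.6 and 119.8 CPM in M0, 176.3, 187.3 and 166.8 in M1, 113.8, 109.2 and 110.1 in M2, and 72.7, 70.2 and 69.0 in TAM. Every M1 library lay above every M2 library, as for 25.1% of all genes tested, and TAM lay below all others. The difference between M1 and M2 was not called for Pomp. Of the 19 listed partner genes that include it, 2 were higher and 2 lower in M1 against M2, beside 9.72% and 7.5% of all genes. These were Psme2b, Fbxo7, Zfand5 and Ubqln1. The Pomp change in TAM against M0 was -1.14 ± 0.22 (adjusted p = 0.00125), or -0.75 without M0 replicate 1.

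In M2 against M0, 0 members were called by edgeR, as were 0% of all genes higher and 0% lower. At an unadjusted p under 0.05 there were 2 members and 980 genes, and DESeq2 and limma-voom called 0 members. The median member change was -0.34 with all libraries and 0.00 without M0 replicate 1, when 0.207% of genes were higher and 0.134% lower and again 0 members. Among the inducible genes, Psme1 stood at 32.5 to 33.8 CPM in M2 and at 29.0 and 31.1 CPM in M0 replicates 2 and 3, a change of 0.15 ± 0.06 without replicate 1 (adjusted p = 0.598).

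In TAM many constitutive genes were lower and a few higher. Against M0, 21 members were lower and 2 higher, shares of 45.7% and 4.35%, beside 27.2% and 23.3% of all genes. A fit of TAM and M0 alone called 8 lower and 0 higher, beside 18.1% and 15.2% of all genes. It called 17.1% of the constitutive members lower, which is near that background. With all 12 libraries the median of the constitutive members was -0.45 against -0.015 for all genes. Without M0 replicate 1, 25 of all 46 members were lower and 12 higher, shares of 54.3% and 26.1% against backgrounds of 33.7% and 33%. Of the 41 constitutive members 24 (58.5%) were then lower and 10 (24.4%) higher. Against M2, 9 of the 46 members were lower and 3 higher, shares of 19.6% and 6.52% against 22.6% and 20.7%, so the lower share was near the background. In the fit without M0 replicate 1 the counts against M2 were 25 lower and 12 higher, against 35.3% and 34.2%. TAM was below every M2 library for 24 of the 41 constitutive members (58.5%) and above every one for 11 (26.8%), against 36.5% and 36.1% of all genes tested.

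Levels per kilobase of the principal transcript, a scale chosen after the values were seen, differed among subunits of the same particle. The order depended on the length assigned, which was 2911 bases for Psma2 and 914 for Psma7, against 3673 and 3071 in merged exons. Without length scaling the constitutive core genes in M2 ran from 57.6 CPM for Psmb5 to 216.3 for Psmb4. In M2 the constitutive core genes ran from 43.3 CPM per kilobase for Psma2 to 231.7 for Psma7, and the 19S genes from 65.7 for Psmd13 to 252.9 for Psmd8. In TAM Psmd8 reached 536.4 ± 14 (SD, n = 3) on this scale, and the core genes ran from 34.6 for Psma2 to 240.3 for Psmb6. In M1 Psmb10, Psme1 and Psme2 stood at 310.1 ± 13, 314.9 ± 15 and 291.1 ± 3.7 CPM per kilobase, above every constitutive core gene. Of these core genes Psma7 was highest at 284.9 ± 8.6. Psmb9 stood at 145.7 ± 1.9 and Psmb8 at 23.8 ± 0.83. Without length scaling Psme2 had a mean of 280 CPM in M1, just below the core gene Psmb4 at 280.8.

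By role, 6 of 7 alpha-ring genes, 3 of 4 beta-ring genes without catalytic activity, 4 of 6 ATPase genes and 5 of 11 other 19S genes were lower in TAM than in M0, beside 27.2% of all genes. Without M0 replicate 1 these were 6, 4, 5 and 6, beside 33.7% of all genes. The alpha-ring genes summed to 812.8 ± 19 CPM in TAM, below the 1025 CPM of the lowest M2 library. The other 19S genes summed to 2631 ± 34 CPM in TAM and 2590 ± 54 in M2, a group in which some members were called higher and others lower. Psma6, Psmc6, Psmd11, Psmd14 and Psmg2, named after their values were seen, had positive changes in TAM against M2. The changes were, in that order, 0.10 ± 0.20, 0.14 ± 0.10, 0.17 ± 0.08, 0.16 ± 0.11 and 0.54 ± 0.23 on the log2 scale, none past the test with all libraries (adjusted p = 0.0767 to 0.713) and all past it without M0 replicate 1. Psmg2, a chaperone gene of alpha-ring assembly, stood at 42.1, 41.3 and 39.9 CPM in TAM and 24.2 to 30.5 in M2. Psmd1 (Rpn2 of the 19S base, also named after its values were seen) stood at 202.9, 285.5 and 286.1 CPM in M0 and 173.1, 173.2 and 173.8 in TAM. It was lower in M0 replicate 1 than in the other M0 libraries, and TAM lay below all of them, with a change of -0.57 ± 0.12 (adjusted p = 0.00253).

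Against M0 and against M2, Psmd8 was the constitutive member with the largest rise in TAM and Psmd3 that with the largest fall. Psmd8 (Rpn12 of the 19S lid, chr7:29174188-29180701) stood at 735.6, 402.9 and 410.5 CPM in M0, 533.3, 507.2 and 537.4 in M1, 401.5, 378.5 and 388.4 in M2, and 841.4, 834.7 and 802.1 in TAM. TAM lay above every other library. The change was 0.68 ± 0.19 against M0 (adjusted p = 0.0133, or 0.0922 in the fit of TAM and M0 alone), 1.02 against M0 without its replicate 1, and 1.08 ± 0.20 against M2 (adjusted p = 0.000981).

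Psmd3 (Rpn3 of the lid, chr11:98682554-98695979) stood at 407.2, 248.8 and 254.0 CPM in M0, 245.0, 253.4 and 261.0 in M1, 264.4, 255.2 and 259.0 in M2, and 139.6, 147.2 and 138.8 in TAM. TAM lay below every other library, with changes of -1.10 ± 0.16 against M0 (adjusted p = 0.000253) and -0.87 ± 0.16 against M2 (adjusted p = 0.00131). Without M0 replicate 1 the change against M0 was -0.83. Psmc3 (Rpt5, an ATPase of the 19S base, chr2:91054009-91066369) fell by 1.06 on the log2 scale against M0, from 553.7, 302.9 and 305.9 CPM to 187.1, 188.9 and 183.0 (adjusted p = 0.00109), with a change of -0.71 without M0 replicate 1. Psmd13, another lid gene, had a change of -0.97 ± 0.24 against M0 (adjusted p = 0.0059, or 0.0585 in the fit of TAM and M0 alone) and of -0.53 without that library. It stood at 283.2, 131.7 and 138.7 CPM in M0 and 91.1, 95.66 and 95.04 in TAM, below every other library.

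Psme3, the gene of the PA28 gamma activator found in the nucleus, stood at 284.0, 295.2 and 289.9 CPM in M0 and 352.0, 352.1 and 368.4 in TAM. It is 1 of the 4 members that were lower in M0 replicate 1 than in the other M0 libraries, and it rose in TAM by 0.30 ± 0.08 against M0 (adjusted p = 0.00688) and by 0.29 ± 0.08 against M2 (adjusted p = 0.00944). The call against M0 was lost with no filter and in the fit of TAM and M0 alone (adjusted p = 0.0976 and 0.0912). Among the alpha-ring genes Psma1 changed by -0.75 ± 0.11 against M0 (adjusted p = 0.000221) and -0.60 ± 0.11 against M2 (adjusted p = 0.00113). It stood at 241.2, 183.6 and 188.3 CPM in M0 and 121.6, 120.8 and 122.7 in TAM. Psmb1, of the beta ring, stood at 354.2, 190.7 and 189.4 CPM in M0 and 142.4, 134.8 and 140.2 in TAM. It changed by -0.82 ± 0.20 against M0 (adjusted p = 0.00642, or 0.0626 in the fit of TAM and M0 alone), or by -0.45 without M0 replicate 1. The chaperone gene Psmd5, of 19S base assembly, changed by -0.28 ± 0.10 (adjusted p = 0.038), a call lost on leaving out any TAM library and some M1 or M2 libraries (adjusted p up to 0.125 with 1 library left out). It was lost too with a replicate block (adjusted p = 0.0562), with upper-quartile factors, with no filter and in the fit of TAM and M0 alone (adjusted p at most 0.17 over these). Psmg1 of the 20S chaperones and the inhibitor gene Psmf1 had changes of -0.37 ± 0.24 (adjusted p = 0.212) and -0.14 ± 0.12 (adjusted p = 0.38), with signs that turned without M0 replicate 1.

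**Figure D3:**
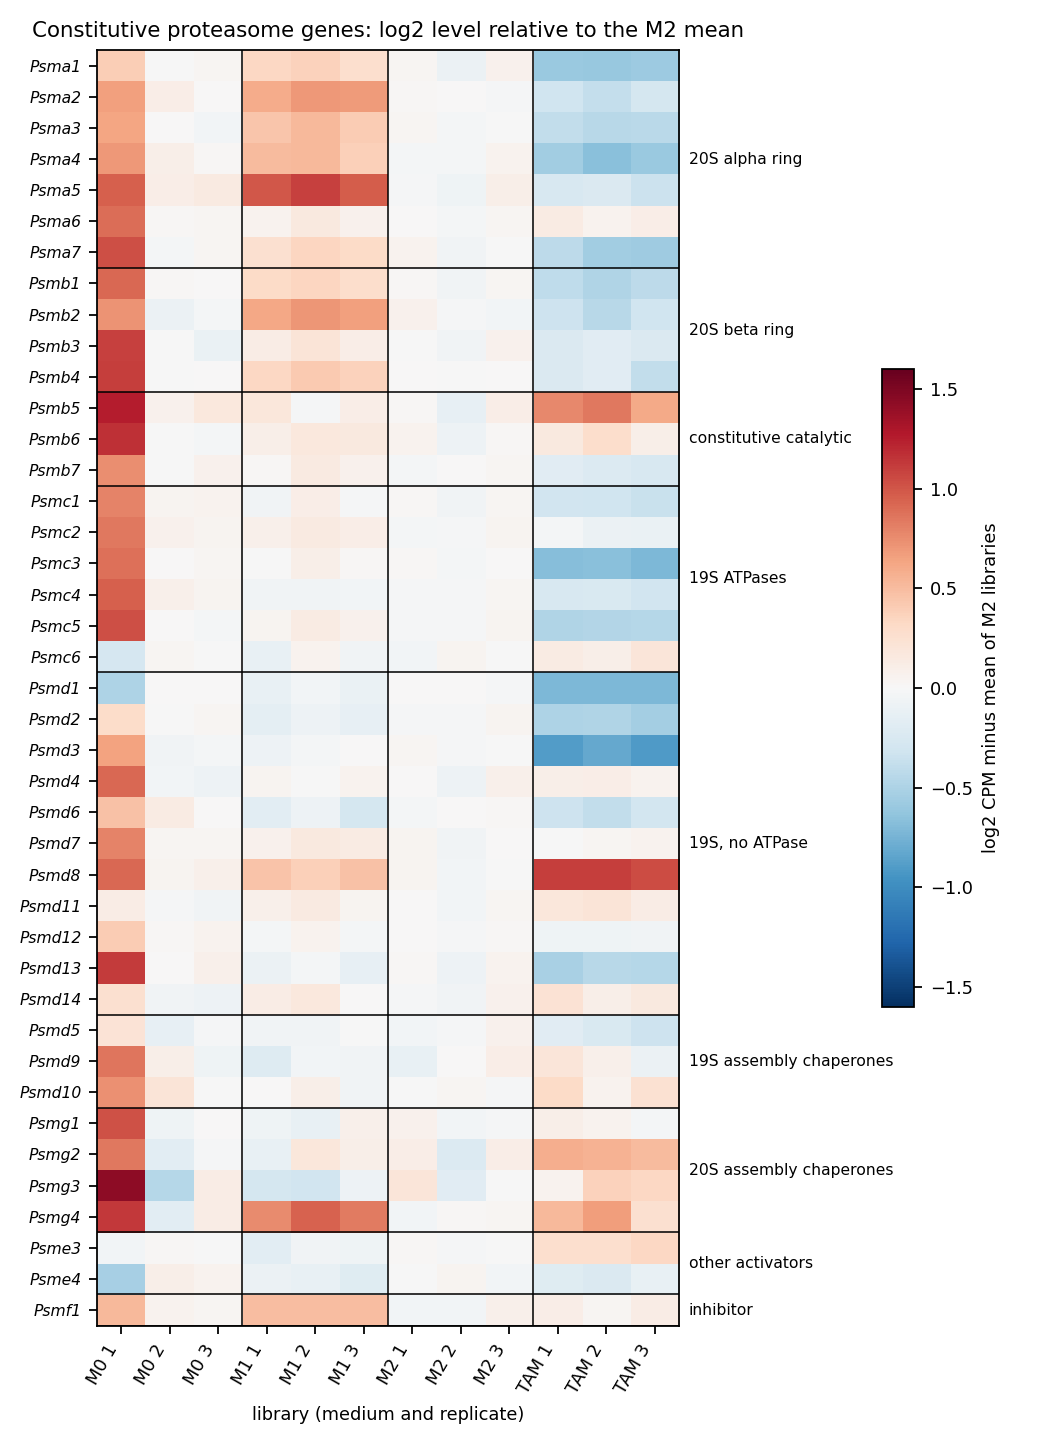
Levels of the 41 constitutive members in 12 libraries as log2 CPM minus the mean of the M2 libraries, with members ordered by role. Red is above and blue below the M2 mean. The column of M0 replicate 1 is red for most members, alpha-ring rows are red in M1 and, except Psma6, blue in TAM, and Psmd8 is reddest in TAM among the 19S rows.

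**Figure D4:**
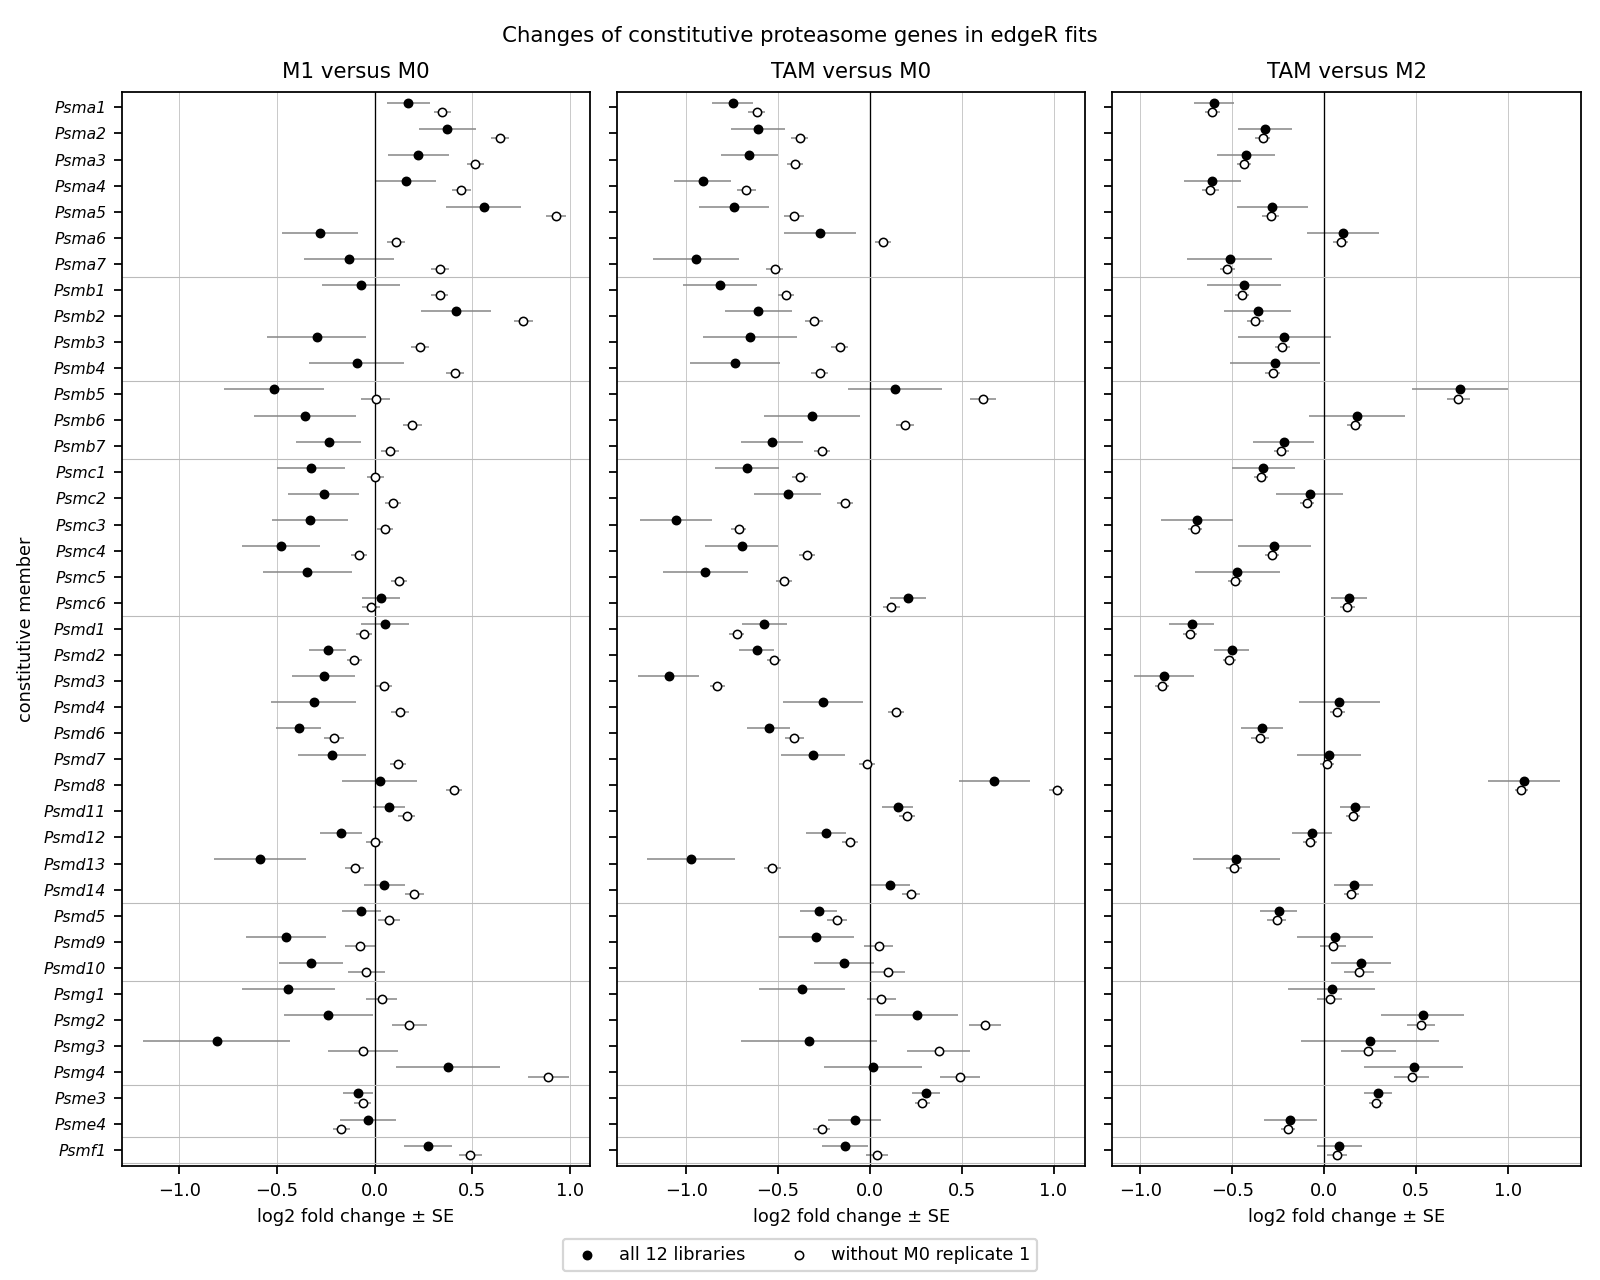
Log2 fold changes with SE of the 41 constitutive members in M1 against M0, TAM against M0 and TAM against M2, from edgeR fits with all 12 libraries (filled) and without M0 replicate 1 (open). In the first 2 panels most open points lie to the right of the filled ones, and in the third, which uses no M0 mean, the 2 sets of points nearly coincide.

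TAM against M1 set tumour-conditioned against interferon-treated macrophages. Here 18 members were lower and 2 higher, against 23.3% and 19.8% of all genes. The 5 inducible genes were among the lower, and of these Psmb8 and Psmb9 had to differ. Of the 41 constitutive members 13 were lower, 31.7%. Without M0 replicate 1, 32 were lower and 6 higher, against 37.7% and 32.4%. Psma5 showed a change of -1.30 ± 0.19 (adjusted p = 0.000269), and Psmd8 rose by 0.65 ± 0.19 (adjusted p = 0.0185). As the comparisons with M0 share libraries, and those with M2 and M1 share others, they are given side by side and were not correlated.

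Genes that build, serve or regulate the proteasome were read from lists of 19, 17, 11 and 6 genes. In M1 against M0, beside 12.2% of all genes higher and 13.5% lower, 1 of 19 partner genes was higher and 0 lower. That gene was Psme2b, at 3.94 ± 0.35. Of 17 regulators 7 were higher and 2 lower, with a list median of 0.48. In the fit without M0 replicate 1, when 24.3% of all genes were higher and 22.9% lower, 7 partner genes were higher and 3 lower, and 8 regulators were higher and 5 lower with a median of 0.095. Nlrc5, the transactivator of MHC class I genes, stood at 0.334, 0.814 and 0.719 CPM in M0 and at 377.3, 381.2 and 393.9 CPM in M1, a change of 9.26 ± 0.23, Irf1, an interferon regulatory factor, changed by 5.59 ± 0.16, Stat3, a cytokine-activated transcription factor, by 2.27 ± 0.13, and Mafk, a small Maf factor, by 0.73 ± 0.09. Of 11 ubiquitin genes 5 were higher and 1 lower, or 8 and 1 without M0 replicate 1, and the ISG15 system genes Isg15, Usp18, Ube2l6 and Uba7 rose by 7.34, 5.83, 4.68 and 6.69. All 6 genes of the list of peptide transport, trimming and presentation, which includes B2m, the light chain of MHC class I, rose in both fits, among them Tap1 and Tap2, which flank Psmb8 on chromosome 17, by 8.42 ± 0.27 and 8.38 ± 0.35.

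In TAM against M0, beside 23.3% of all genes higher and 27.2% lower, 10 of 17 regulators were higher and 4 lower, and the counts were equal without M0 replicate 1, when 33% and 33.7% of all genes were called. Nfe2l1, the factor that activates proteasome genes when the proteasome is inhibited, stood at 264.6, 242.6 and 270.9 CPM in M0 and 505.4, 531.9 and 520.3 in TAM. It rose in TAM by 1.00 ± 0.11 (adjusted p = 1.8e-05). Higher levels of Nfe2l1 than in M0 were not particular to TAM, as it stood at 455.4, 360.7 and 433.7 CPM in M1. Its small Maf partners Mafk and Mafg rose by 1.70 ± 0.09 and 1.12 ± 0.08, and Nfyb, a subunit of the CCAAT-binding factor, by 1.37 ± 0.14. Maff, another small Maf gene named after its values were seen, had mean levels of 4.74 CPM in M0 and 13.48 in TAM. Of the 34 constitutive genes with a window, 12 held a CCAAT box and 19 the antioxidant core TGANNNNGC, against 41.1% and 45% of genes. Matches of the antioxidant core shared bases with a gamma-activated site match in Psmg1 and with a response element match in Psmg4. Partner genes included Uchl5, a deubiquitinase of the 19S particle, with a change of -0.91 ± 0.10 (adjusted p = 1.91e-05), Rad23b, a ubiquitin shuttle, at 0.70 ± 0.10 and Akirin2, a factor of nuclear import of proteasomes, at 0.52 ± 0.13, and 5 of 19 were higher and 3 lower, or 9 and 6 without M0 replicate 1. Isg15 rose by 2.28 ± 0.24 and Ube2l6 changed by -1.37 ± 0.24. Of the 11 ubiquitin genes 2 were higher and 2 lower, or 5 and 2 without M0 replicate 1. Of the 6 peptide transport genes 3 were higher and 0 lower, or 5 and 0 without that library. Mean levels of Erap1 were 6.12 CPM in M0 and 14.08 in TAM, and those of Lap3 85.0 and 102.2.

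**Figure D5:**
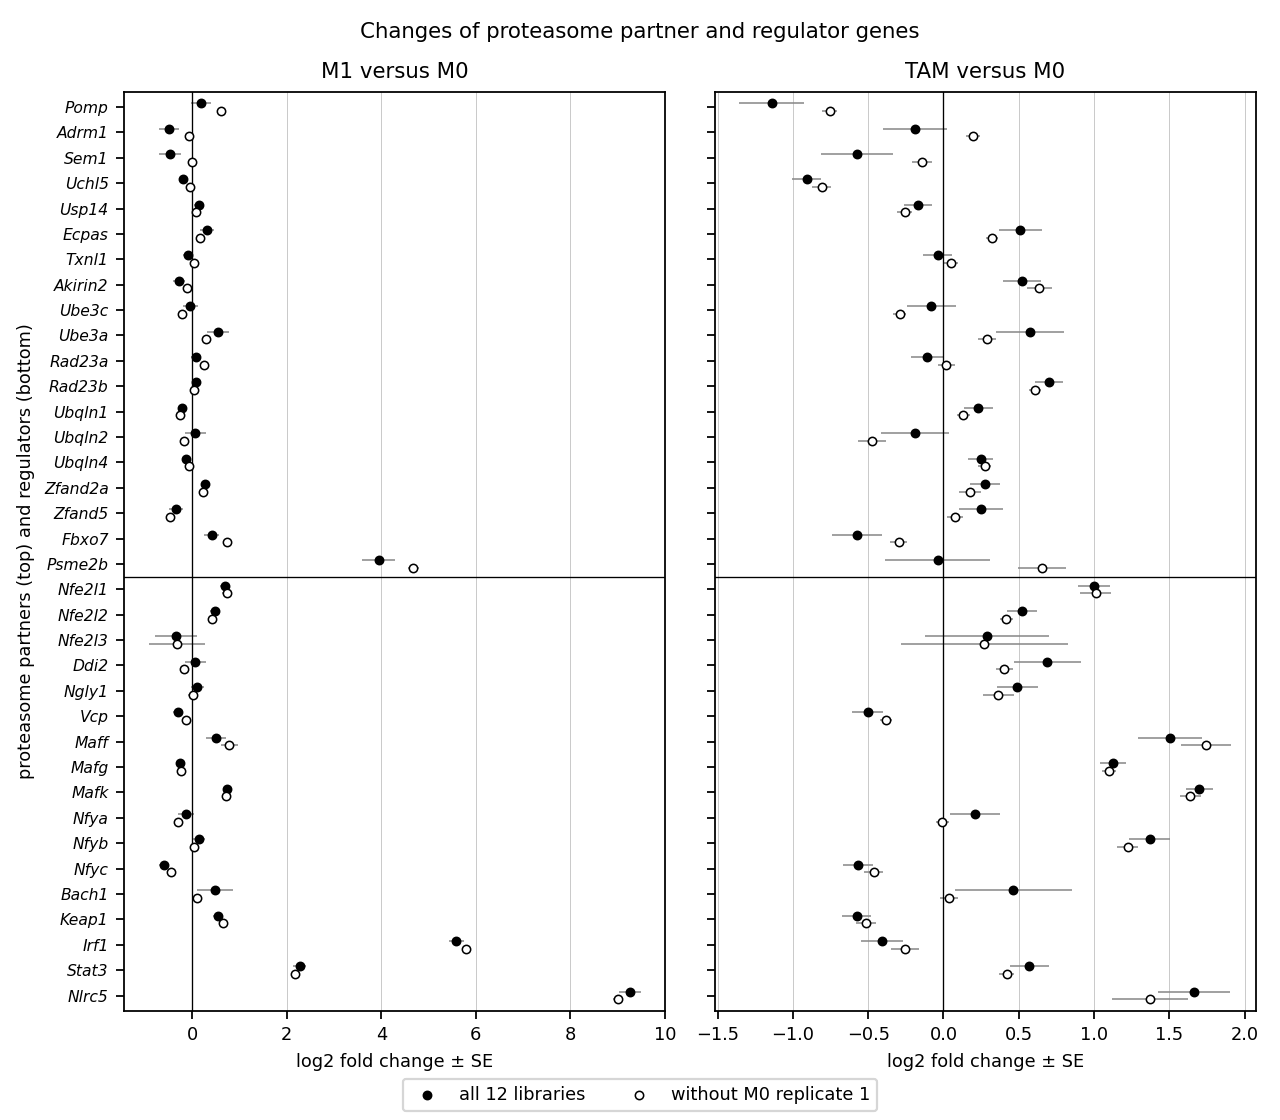
Log2 fold changes with SE of proteasome partner genes (above the line) and regulators (below it) in M1 against M0 and TAM against M0, with all libraries (filled) and without M0 replicate 1 (open). Nlrc5, Irf1 and Psme2b stand furthest right in M1, and in TAM Mafk, Mafg, Nfyb, Maff and Nlrc5 are right of 1 with both fits.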

How the data were processed

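The authors deposited 1 table of read counts per Ensembl gene, taken as raw because the values are whole and library totals differ. The submitters' processing notes name HISAT2 2.0 and mm10. For the counter, annotation and strand setting, nothing is given in the sources used here. Members, lists and the rule for named genes were chosen with earlier results of these data known. Named genes were the 5 inducible and 3 constitutive catalytic genes and Pomp, then, for each comparison with M0 and for M1 versus M2, up to 3 other called members by size of rise and 3 by size of fall, 1 member of smallest p for each role not yet named, and up to 4 genes per companion list by adjusted p. Paaf1, 1 of 20 listed partner genes, was not matched, and 1 listed regulator is not reported here.

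Counts were fitted in R 4.3.3 with edgeR 4.0.16: filterByExpr by group, TMM scaling, and 1 robust quasi-likelihood fit over all 12 libraries. P-values were adjusted by Benjamini-Hochberg over 14591 genes, with calls under 0.05. SE is the absolute log2 change divided by the square root of F. CPM values are TMM-scaled unless stated. Gene positions are 1-based from GENCODE M21 (GRCm38, mm10). DESeq2 1.42.0, limma 3.58.1 (voom), RLE and upper-quartile factors, no filter, a replicate block, fits of 2 groups only and leaving out each library were the alternatives.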

Additional observations from a re-analysis of the deposited data

How the results depend on the processing

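The counts of members called kept within 1.5 times under RLE and upper-quartile factors and limma-voom in all 6 comparisons. Psmb10, Psme1 and Psme2 passed in M1 against M0 under every alternative run. Psmb8 and Psmb9 passed as well, but they had to differ. With no filter the members lower in M1 against M0 numbered 0, and those higher in TAM against M0 and against M1 were 1 and 1. DESeq2 gave 4 higher in TAM against M0 and 5 against M2. Fits of only the 2 groups compared gave 0 lower in M1 against M0, 0 higher and 8 lower in TAM against M0, 26 higher and 3 lower in M1 against M2, 8 higher and 30 lower in TAM against M1, and 12 higher and 24 lower in TAM against M2. In these fits all-gene shares higher and lower were 6.46% and 2.84% in M1 against M0 and 15.2% and 18.1% in TAM against M0. They were 25.8% and 24.6% in M1 against M2, 36.4% and 36.8% in TAM against M1, and 36.3% and 36.8% in TAM against M2. Such fits without M0 do not hold M0 replicate 1. Leaving out each library in turn gave 5 to 25 higher and 0 to 6 lower in M1 against M0, 2 to 12 higher in TAM against M0, 7 to 26 higher and 0 to 3 lower in M1 against M2, 1 to 6 higher and 18 to 32 lower in TAM against M1, and 1 to 12 higher and 6 to 25 lower in TAM against M2. The highest counts came without M0 replicate 1, except the 6 lower in M1 against M0, which came without M0 replicate 2. With a replicate block the members lower in M1 against M0 numbered 0 and no other count moved by over 1.5 times. Same-numbered libraries of different groups correlated at -0.169 to 0.212 in their deviations over 18 pairs, with 2 above 0.1. Of the 12 libraries 4 correlated best with their own number. No pairing by number was seen, but so few libraries cannot exclude it.

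Leaving out single libraries turned the sign of some log2 changes that were not called. In M1 against M0 these ranged from -0.72 to 0.0064 for Psmb5, -0.56 to 0.19 for Psmb6 and -0.37 to 0.079 for Psmb7. In M2 against M0 they ranged from -0.27 to 4.28 for Psmb9, -0.76 to 0.084 for Psmb10, -0.54 to 0.15 for Psme1, -0.60 to 0.10 for Psme2 and -0.70 to 0.024 for Psmb6. In TAM against M0 they ranged from -0.42 to 0.26 for Psme1, -0.20 to 0.50 for Psme2, -0.079 to 0.61 for Psmb5, -0.53 to 0.19 for Psmb6, -0.23 to 0.038 for Psmf1 and -0.56 to 0.063 for Psmg1. In TAM against M1 Psmb6 ranged from -0.057 to 0.039. Psme2 in TAM against M0 was -0.0033 with upper-quartile factors, and Psmb6 in TAM against M1 was -0.025 with no filter. The shares of catalytic pairs depended on length scaling by construction. Without length scaling they were 38.8% (Psmb8), 51.3% (Psmb9) and 72.9% (Psmb10) in M1, 0.072% for Psmb9 in M2, and 7.67%, 7.10% and 4.14% for Psmb10 in M0, M2 and TAM. Per kilobase of the principal transcript, added after seeing the data, they were 25.9%, 38.4% and 70.5% in M1, and 6.85%, 6.33% and 3.68% for Psmb10 in M0, M2 and TAM. The cause of the other changes was not tested.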
